A study of Mus musculus with 6 samples.

Results

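The 7 mature miRNAs described here, miR-15a-5p, miR-15b-5p, miR-16-5p, miR-195a-5p, miR-195b, miR-322-5p and miR-497a-5p, are those of a table of 1966 mouse miRNAs that belong to the miR-15/16 family and were taken by name. They share the seed, bases 2 to 8 of the mature strand, through which a miRNA pairs with its target mRNAs. Small RNA of the heart was sequenced from 6 male wild-type (WT) mice. Of these, 3 had transverse aortic constriction (TAC), a narrowing of the aorta against which the left ventricle must pump, and 3 had the sham operation. Tissue was collected 8 weeks after surgery, and neither the age nor the strain of the mice is given in the labels. Mice are named by group and by their number in the labels (sham 47, 68 and 69, and TAC 29, 78 and 81), and each is a separate animal with 1 library.

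miRNAs of this family lower the output of mRNAs for cell cycle proteins such as cyclins and the checkpoint kinase Chek1, and of the survival protein Bcl2. In the mouse heart, miR-195 is known to rise after birth, when cardiomyocytes leave the cell cycle, and to be raised in hypertrophic hearts, while blocking the family prolongs the time in which cardiomyocytes can divide. Most of the members are cut from hairpins that lie in groups, so that a pair of them can be made from 1 transcript.

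The mature sequences (RefSeq, GRCm38, written 5′ to 3′ with the seed in capitals) are printed because they set the family apart and because their likeness limits how well a short read can be given to 1 member.
miR-15a-5p: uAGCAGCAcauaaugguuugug
miR-15b-5p: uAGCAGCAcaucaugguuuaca
miR-16-5p: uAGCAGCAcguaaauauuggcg
miR-195a-5p: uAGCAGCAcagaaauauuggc
miR-195b: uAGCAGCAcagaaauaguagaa
miR-322-5p: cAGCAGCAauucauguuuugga
miR-497a-5p: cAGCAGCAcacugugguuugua
The first base is u in miR-15a-5p, miR-15b-5p, miR-16-5p, miR-195a-5p and miR-195b and c in miR-322-5p and miR-497a-5p. Beyond the seed they diverge: aligned at the first base, miR-16-5p and miR-195a-5p differed at 2 of 21 positions, the fewest of any pair, and miR-16-5p and miR-497a-5p at 11 of 22. GC content ran from 36.4% in miR-195b to 50.0% in miR-497a-5p. Another 3 rows of the table carry the same seed, miR-6342, miR-6353 and miR-6419, and all 3 were at 0 in every library.

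The members come from 5 loci of the mm10 assembly. miR-15a-5p (chr14:61632075-61632096, minus strand) and a copy of miR-16-5p (chr14:61631936-61631957) lie 117 bases apart in an intron of the noncoding gene Dleu2. miR-15b-5p (chr3:69009775-69009796, plus strand) and the other copy of miR-16-5p (chr3:69009918-69009939) lie 121 bases apart in an intron of Smc4, a condensin subunit gene. miR-497a-5p (chr11:70234730-70234751) and miR-195a-5p (chr11:70235062-70235082), both on the plus strand, are 310 bases apart. miR-322-5p (chrX:53054306-53054327, minus strand) opens a larger cluster on the X chromosome, and miR-195b (chr2:56785825-56785846, plus strand) stands alone. At these last 4 members GENCODE M21 gives no host gene.

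The mature strand of miR-16-5p is the same in both of its hairpins, printed here with that strand in capitals.
Mir16-1: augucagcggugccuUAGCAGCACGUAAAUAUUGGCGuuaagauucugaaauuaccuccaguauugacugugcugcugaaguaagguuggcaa
Mir16-2: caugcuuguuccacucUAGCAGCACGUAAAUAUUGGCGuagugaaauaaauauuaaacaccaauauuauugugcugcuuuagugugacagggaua
A read of miR-16-5p therefore cannot be assigned to chromosome 14 or 3. In this table such reads were counted at each place: the count of miR-199a-3p, which has 2 places, was 2.0001 to 2.0004 times that of miR-199b-3p, the same mature strand at 1 place, over the 6 libraries. miR-16-5p is the only member with 2 places. Its level is given as deposited, and per place where members are set side by side.

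Each sham library held 1818725 to 3509001 counts and each TAC library 1226187 to 1795831, so that TAC libraries were shallower. Of 354 miRNAs that passed a filter on low counts, 68 were called higher and 40 lower in TAC (edgeR quasi-likelihood test, Benjamini-Hochberg adjusted p under 0.05), which is 19.2% and 11.3% of those tested, or 30.5% in either direction. All 7 members passed the filter. The tissue label was checked against miRNAs of heart muscle. Their summed level was 167159 to 200244 CPM (counts scaled to library size with TMM factors) in sham and 296664 to 356020 in TAC hearts. None of the 7 was at 0 and 6 were called higher (miR-499-5p by a log2 fold change of 0.88 ± 0.08, edgeR adjusted p = 0.00044). The other, miR-208b-3p, was not called (-0.05 ± 0.49, edgeR adjusted p = 0.947). miR-1a-3p alone held 114392 of 167159 CPM in sham 47. As miR-133a-3p and miR-133b-3p are near-identical, their calls may not be independent. The summed level of 6 fibroblast and mesenchymal miRNAs was 19111 to 30895 CPM in sham and 16660 to 17239 in TAC, and 5 of the 6 were called lower (miR-214-3p by -1.58 ± 0.18, edgeR adjusted p = 0.000901). Among those called, miR-199a-3p and miR-199b-3p are the same mature strand, so their calls are not independent. Both rows together hold most of the sum (14940 and 7469 of 26533 CPM in sham 47). In whole tissue, fewer cells of a type and less RNA per cell cannot be told apart.

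Of the 7 members, miR-16-5p was higher in TAC hearts, 0 were lower, and 6 were not called. The share called was thus 14.3% of the members, where it was 30.5% of all tested miRNAs in either direction and 19.2% for higher alone. The median log2 fold change was 0.06 for the members and 0.07 for all tested miRNAs, so the family's middle lay at the level of the whole table. Sham and TAC hearts were without overlap at 3 of the 7 members, which compares with 51.4% of all tested miRNAs (29.4% with TAC higher and 22% with TAC lower). miR-16-5p and miR-15a-5p were higher and miR-497a-5p was lower in every TAC heart than in every sham heart.

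miR-16-5p, the most abundant member, was at 607, 721 and 596 CPM in sham 47, 68 and 69 and at 974, 817 and 963 CPM in TAC 29, 78 and 81. All 3 TAC hearts lay above all 3 sham hearts, with sham 68 and TAC 78 the nearest to each other. It rose from 641 ± 69.2 to 918 ± 87.8 CPM (SD, n = 3 each), a 1.43-fold change (log2 fold change 0.52 ± 0.12 SE, edgeR adjusted p = 0.0125). The call was lost without TAC 29 (0.47, adjusted p = 0.0505), without TAC 81 (0.48, adjusted p = 0.0543), with library totals as the scaling (0.21, adjusted p = 0.203) and without a filter on low counts (0.36, adjusted p = 0.12). miR-16-5p is also abundant in red blood cells. Of 7 red blood cell miRNAs, 3 could be tested and miR-451a was called higher, while miR-486a-5p, miR-486a-3p and miR-486b-3p were at 0 in every library and overlap rows on the opposite strand. The summed level of that list was 1001 to 1166 CPM in sham and 2135, 1642 and 3065 CPM in TAC 29, 78 and 81, of which miR-451a held 2006, 1545 and 2911. The part of blood in the level of miR-16-5p was not tested.

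**Figure D1:**
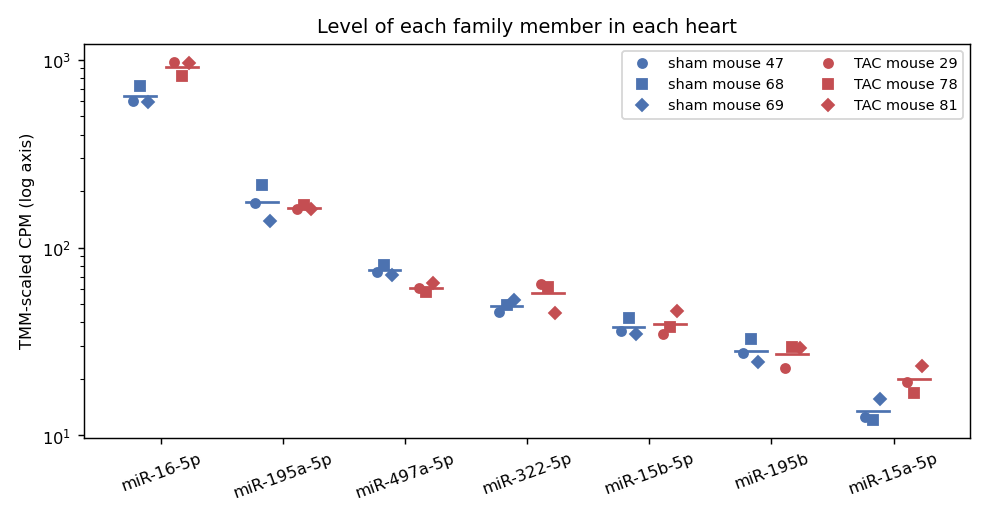
TMM-scaled CPM on a log axis (vertical) for each of the 7 members (horizontal), with 1 point per heart, sham in blue and TAC in red, and the mean of 3 as a bar. The TAC hearts lie above the sham hearts at miR-16-5p and miR-15a-5p and below them at miR-497a-5p, and the groups overlap at the other members.

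miR-15a-5p, the neighbour of miR-16-5p in Dleu2, was the scarcest member. It was at 12.5, 12.1 and 15.7 CPM in sham 47, 68 and 69 and at 19.4, 16.8 and 23.5 CPM in TAC 29, 78 and 81. The groups were separate but close, and each value rests on 24 to 49 reads. Its log2 fold change of 0.55 ± 0.23 was near that of miR-16-5p, with a larger standard error, and it was not called (edgeR adjusted p = 0.0987). With library totals it was at 0.24 (edgeR adjusted p = 0.454), where miR-16-5p was at 0.21. Once a trend with GC content was removed within each library it was at 0.34 (edgeR adjusted p = 0.332), where miR-16-5p was at 0.42.

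miR-15b-5p, the neighbour of the other copy of miR-16-5p in Smc4, was at 36.1, 42.2 and 34.5 CPM in sham 47, 68 and 69. In TAC 29, 78 and 81 it was at 34.5, 37.6 and 46.1 CPM. The groups overlapped over most of their range, and the log2 fold change was 0.06 ± 0.17 (edgeR adjusted p = 0.796), with a sign that depended on the scaling (-0.01 under RLE size factors, -0.25 under library totals).

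miR-195a-5p, the member known for its rise in hypertrophic hearts, was at 172, 216 and 139 CPM in sham 47, 68 and 69. It was at 160, 168 and 160 CPM in TAC 29, 78 and 81, inside the sham range in all 3 hearts. The log2 fold change was -0.11 ± 0.18 (edgeR adjusted p = 0.63) and turned to 0.07 without sham 68, the highest sham heart.

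miR-497a-5p, made from the same stretch of chromosome 11, was at 74.2, 80.9 and 71.7 CPM in sham 47, 68 and 69 and at 61.1, 57.8 and 64.9 CPM in TAC 29, 78 and 81. The groups did not overlap, and the spread within each was narrow (75.6 ± 4.73 and 61.3 ± 3.53 CPM, SD, n = 3 each). Its log2 fold change of -0.30 ± 0.15 was not called (edgeR adjusted p = 0.152), but it was called lower with library totals (-0.61, adjusted p = 0.0138) and when the 5 most abundant miRNAs were left out of those totals (-0.47, adjusted p = 0.0433).

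miR-322-5p, the mouse counterpart of human miR-424, was at 45.3, 49.2 and 52.9 CPM in sham 47, 68 and 69 and at 64.1, 61.8 and 45.1 CPM in TAC 29, 78 and 81. TAC 81 was as low as the lowest sham heart and the other TAC hearts were above all sham hearts (log2 fold change 0.23 ± 0.18, edgeR adjusted p = 0.348, and -0.08 with library totals).

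miR-195b was at 27.6, 32.6 and 24.7 CPM in sham 47, 68 and 69 and at 23.0, 29.6 and 29.1 CPM in TAC 29, 78 and 81. The groups overlapped (log2 fold change -0.06 ± 0.19, edgeR adjusted p = 0.831). Its first 16 bases are those of miR-195a-5p, shown here in capitals because a read that ends early fits both.
miR-195a-5p: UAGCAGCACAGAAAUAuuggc
miR-195b: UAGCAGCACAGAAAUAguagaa
The row of miR-195b held 12.6% to 15.4% of the counts of both rows over the 6 libraries, and the 95% exact binomial intervals of all 6 shares overlapped (11.8% to 18.9% in sham 69 and 9.06% to 16.9% in TAC 29, for counting error only). Whether these are separate molecules was not tested, and the 2 rows may not be independent measurements. With both rows summed the log2 fold change was -0.10 (adjusted over all rows with edgeR, not called).

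Set side by side per place, the order of levels in sham hearts was miR-16-5p (320 ± 34.6 CPM per place), miR-195a-5p (176 ± 38.7), miR-497a-5p (75.6 ± 4.73), miR-322-5p (49.1 ± 3.81), miR-15b-5p (37.6 ± 4.07), miR-195b (28.3 ± 4.02) and miR-15a-5p (13.4 ± 1.97; SD, n = 3 each). The rows are 21 or 22 nt long. No neighbours in that order overlapped in the sham hearts. The order of the means was the same in TAC hearts, where 3 neighbouring pairs overlapped: miR-497a-5p with miR-322-5p, miR-322-5p with miR-15b-5p, and miR-195b with miR-15a-5p.

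The direction of small changes depended on the scaling, because the median log2 fold change of all tested miRNAs moved from 0.07 with TMM factors to -0.24 with library totals. A scaling multiplies each library by a single factor, which moves every row and the median by nearly the same step. Relative to that median the members therefore hardly moved among the 5 scalings, which is no check of their values. miR-16-5p stood 0.44 to 0.45 above it and miR-15a-5p 0.48 above it. miR-322-5p was at 0.15 to 0.16 and miR-15b-5p at -0.01 relative to the median. miR-195b was at -0.13, miR-195a-5p at -0.18 and miR-497a-5p at -0.38 to -0.37. The number called did depend on the scaling: 1 higher and 0 lower with TMM, RLE and upper quartile factors, 0 higher and 1 lower with library totals, and 1 of each when the 5 most abundant miRNAs were taken out of the totals.

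**Figure D2:**
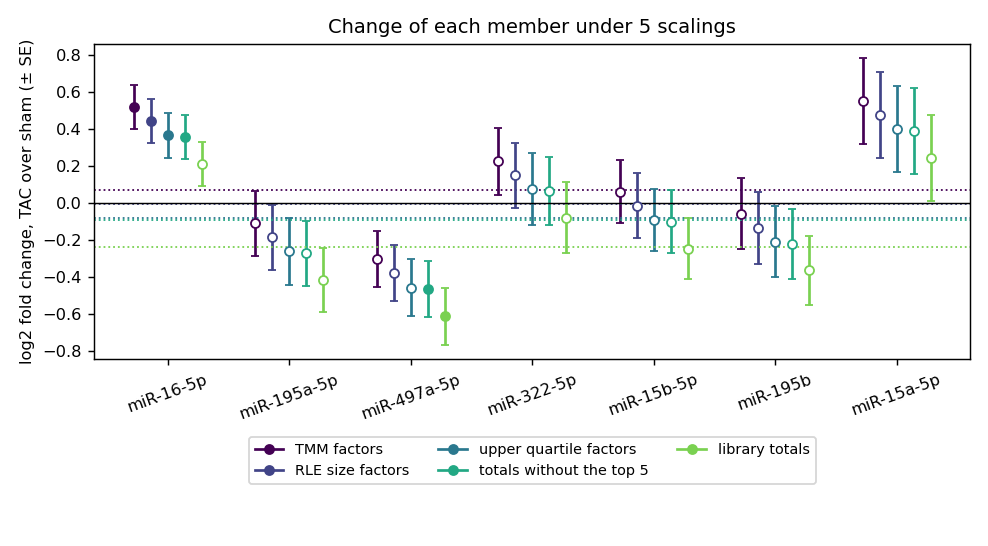
Log2 fold change of TAC over sham with its standard error (vertical) for each member (horizontal) under 5 scalings (colours); filled points are called and open points are not, and each dotted line is the median of all tested miRNAs under the scaling of its colour. All points of a member move down together from TMM factors to library totals, by nearly the same step as the dotted lines, because a scaling applies a single factor to each library.

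A ratio of 2 members within a library does not depend on the scaling. Relative to miR-16-5p per place, miR-497a-5p was at 0.245, 0.224 and 0.241 in sham 47, 68 and 69 and at 0.125, 0.142 and 0.135 in TAC 29, 78 and 81. The ratio in every TAC heart was thus well under that in every sham heart, with a difference of -0.82 in mean log2 value, or 0.566 times the sham ratio. The ratio of miR-195a-5p to miR-16-5p was 0.567, 0.599 and 0.466 in sham hearts. In the TAC hearts, in the same order of mice as before, it was 0.328, 0.412 and 0.332, a log2 difference of -0.61. The ratios of miR-195b (a log2 difference of -0.57) and miR-15b-5p (-0.46) to miR-16-5p were also lower in every TAC heart than in every sham heart. The ratio of miR-322-5p to miR-16-5p overlapped between the groups (-0.32). All 6 ratios share miR-16-5p, which stood 0.45 above the median log2 fold change of all tested miRNAs with TMM factors. A miRNA at that median would thus also have a lower ratio, as miR-15b-5p, at -0.01 relative to it, had. How many of all tested miRNAs have such a ratio was not computed, so the lower ratios are not read as changes of those members.

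Only the ratio of miR-15a-5p to miR-16-5p, its neighbour in Dleu2, had a log2 difference near 0 among the 6 ratios (0.05, with means of -4.58 ± 0.33 in sham and -4.54 ± 0.16 in TAC). The two-sided exact permutation p was 0.1 for each of the 4 ratios without overlap, the smallest that 3 against 3 allows (adjusted p = 0.15 over 6 ratios). It was 0.3 for miR-322-5p (adjusted p = 0.36) and 1.0 for miR-15a-5p. None can pass a threshold of 0.05 in this design.

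**Figure D3:**
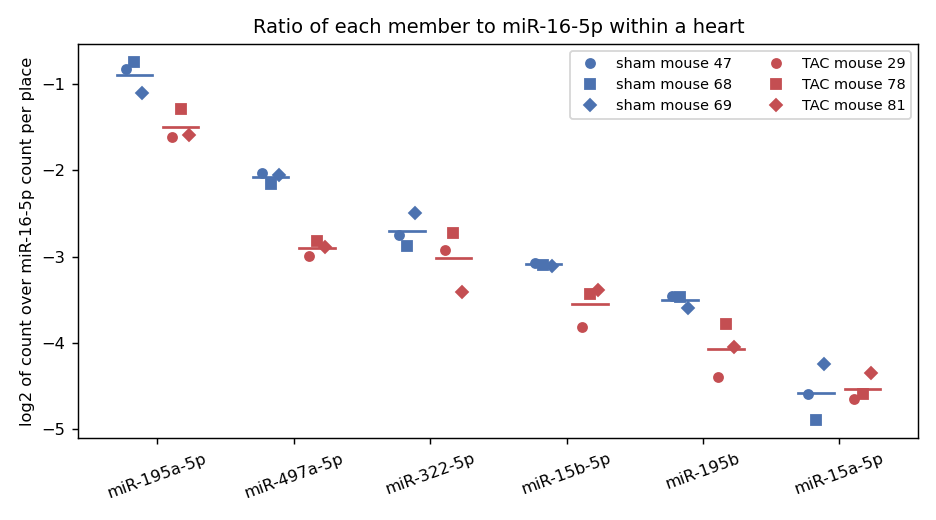
Log2 of the count of each of 6 members over the count of miR-16-5p per place in the same heart (vertical), with 1 point per heart, sham in blue and TAC in red, and the mean of 3 as a bar. The groups are apart at miR-195a-5p, miR-497a-5p, miR-15b-5p and miR-195b, and mixed at miR-322-5p and miR-15a-5p.

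The same counts can be read as shares of the family. Per place, miR-16-5p held 45.8% ± 0.882 of the family's counts in sham and 55.5% ± 2.72 in TAC hearts, while miR-195a-5p held 24.9% ± 2.78 and 19.7% ± 1.58 and miR-497a-5p 10.8% ± 0.571 and 7.41% ± 0.217 (SD, n = 3 each). The whole family held 0.113% ± 0.0113 of all counts in sham and 0.115% ± 0.00758 in TAC hearts as deposited, and 0.0991% ± 0.0101 and 0.0955% ± 0.00526 per place. Those 2 differences are smaller than the SD between mice. With the 5 most abundant miRNAs left out of the total, the share was 0.169% ± 0.0185 in sham and 0.190% ± 0.0128 in TAC hearts, a difference larger than either SD, although sham 68 (0.190%) lay inside the TAC range of 0.176% to 0.200%. In TMM-scaled CPM as deposited, the members summed to 934 to 1154 in sham and 1188 to 1336 in TAC hearts, without overlap. That sum counts each read of miR-16-5p at both of its places, and the separation holds for the deposited counts only. miR-16-5p held 721 of 1154 CPM in sham 68 and 817 of 1188 CPM in TAC 78. Counted per place, sham 68 therefore lies above TAC 78, and the groups overlap. Whether the family's total lay apart between the groups thus depended on the scaling and on how the places of miR-16-5p were counted. Summed values of the members were given no test.

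The other strand of a hairpin gives a second reading of the same precursor. miR-195a-3p was at 177, 142 and 138 CPM in sham 47, 68 and 69 and at 103, 85.4 and 90.2 CPM in TAC 29, 78 and 81. All TAC hearts were lower, and the row was called (log2 fold change -0.71 ± 0.16, edgeR adjusted p = 0.0125). The call was lost without sham 47 (-0.56, adjusted p = 0.0509) and without TAC 78 (-0.66, adjusted p = 0.0545). Of 4 opposite arms tested it was the only one called, whereas miR-15b-3p (0.24 ± 0.28), miR-16-1-3p (0.22 ± 0.30) and miR-322-3p (-0.15 ± 0.20) were not. miR-15a-3p and miR-16-2-3p had at most 3 and 6 counts in any library and were not tested. miR-497a-3p and miR-497b were at 0 in every library, and both overlap a row on the opposite strand, so a 0 there was not read as absence.

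The 2 arms of miR-195a and of miR-322 are shown in their hairpins, with the 5p arm in capitals.
Mir195a: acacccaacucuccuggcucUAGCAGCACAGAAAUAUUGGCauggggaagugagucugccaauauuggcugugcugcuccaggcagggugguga
Mir322: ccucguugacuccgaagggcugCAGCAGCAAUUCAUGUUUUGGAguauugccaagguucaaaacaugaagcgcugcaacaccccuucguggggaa
The 5p arm of miR-195a held 49.3%, 60.3% and 50.2% of the hairpin's reads in sham 47, 68 and 69. In the TAC hearts 29, 78 and 81 it held 60.7%, 66.3% and 63.9%. Sham 68 came within its counting error of TAC 29 (95% exact binomial intervals of 56.6% to 63.9% and 55.9% to 65.3%). The difference between groups, from 53.3% ± 6.12 to 63.6% ± 2.82 (SD, n = 3 each), had an exact permutation p of 0.1, the smallest possible. These arm shares, and 8 ratios between arms and neighbours, were chosen after the values were seen. Adjusted over those 8 ratios, the p of the ratio of the arms of miR-195a was 0.4 (exact permutation test).

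miR-322 gave more reads from its 3p than from its 5p arm. Its 5p arm held 31.5%, 22.8% and 27.8% of its reads in sham 47, 68 and 69. In the TAC hearts 29, 78 and 81 the share was 34.8%, 34.7% and 26.5%, with overlap between the groups. miR-15b was the opposite case, with 77.0% to 84.8% of its counts from the 5p arm in all 6 hearts. In the miR-503 hairpin the 5p arm held 28.3% to 51.9%.

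**Figure D4:**
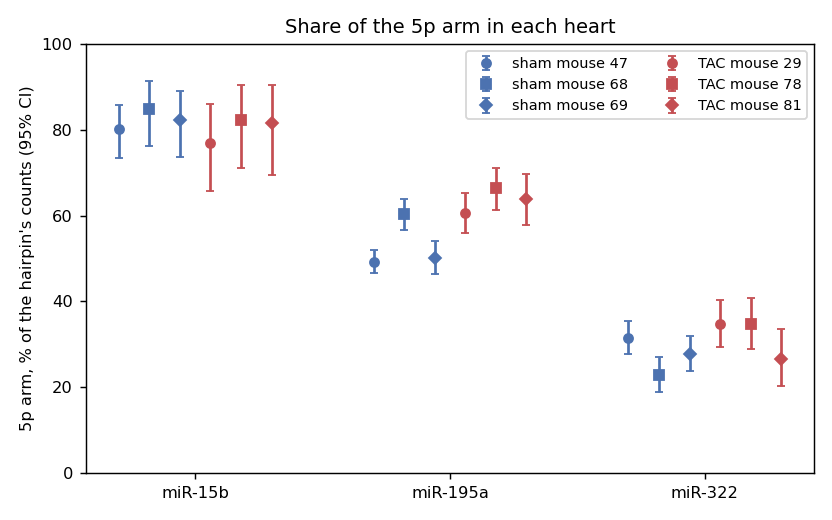
Percent of a hairpin's counts that came from its 5p arm (vertical) for miR-15b, miR-195a and miR-322 (horizontal), with 1 point per heart, sham in blue and TAC in red, and bars for the 95% exact binomial interval, which covers counting error only. At miR-195a the TAC hearts lie between 60.7% and 66.3% and sham 68 lies near them at 60.3%, while sham 47 and sham 69 are at 49.3% and 50.2%.

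miR-322-5p lies at the head of an X chromosome cluster that also holds miR-503, miR-351, miR-542, miR-450a and miR-450b, within 6298 bases on the minus strand. miR-503-5p differs from the family in the last base of the seed, as its sequence with the seed in capitals shows.
miR-503-5p: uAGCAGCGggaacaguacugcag
Of 13 rows of the cluster 9 were tested, 1 was called higher and 1 lower, and 7 were not called, where 30.5% of all tested miRNAs were called in either direction, with a median log2 fold change of 0.23 against 0.07 for all tested miRNAs. miR-503-5p (-0.19 ± 0.25) and miR-503-3p (0.00) were not called, and neither were miR-542-3p (0.36 ± 0.22), miR-450a-1-3p (0.79 ± 0.47) and miR-450b-3p (0.50 ± 0.41).

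The 2 calls of the cluster had opposite directions. miR-351-5p, which lies 989 bases after the start of miR-322-5p and has the seed of the miR-125 family, was at 169, 207 and 245 CPM in sham 47, 68 and 69 and at 137, 142 and 136 CPM in TAC 29, 78 and 81. It fell in TAC (log2 fold change -0.58 ± 0.16, edgeR adjusted p = 0.0288). miR-450a-5p was at 79.3, 82.4 and 71.3 CPM in sham 47, 68 and 69 and at 89.5, 134 and 124 CPM in TAC 29, 78 and 81, and it rose (0.58 ± 0.18, edgeR adjusted p = 0.0431). The groups did not overlap in either row. The ratio of miR-450a-5p to miR-351-5p, per place, was 0.146 to 0.234 in sham and 0.327 to 0.472 in TAC hearts (exact permutation p = 0.1, and adjusted p = 0.4 over 8 ratios).

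Both calls depended on the mice and the processing. GC content was 62.5% in miR-351-5p and 31.8% in miR-450a-5p, and once a trend with GC content was removed within each library their log2 fold changes were -0.37 (adjusted p = 0.101) and 0.19 (adjusted p = 0.495). The call of miR-351-5p was also lost without sham 68 (-0.56), sham 69 (-0.44), TAC 29 (-0.57), TAC 78 (-0.60) or TAC 81 (-0.56). That of miR-450a-5p was lost without sham 47 (0.63), sham 68 (0.63), sham 69 (0.51), TAC 78 (0.44) or TAC 81 (0.52), under the 4 other scalings, and in 3 further settings.

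**Figure D5:**
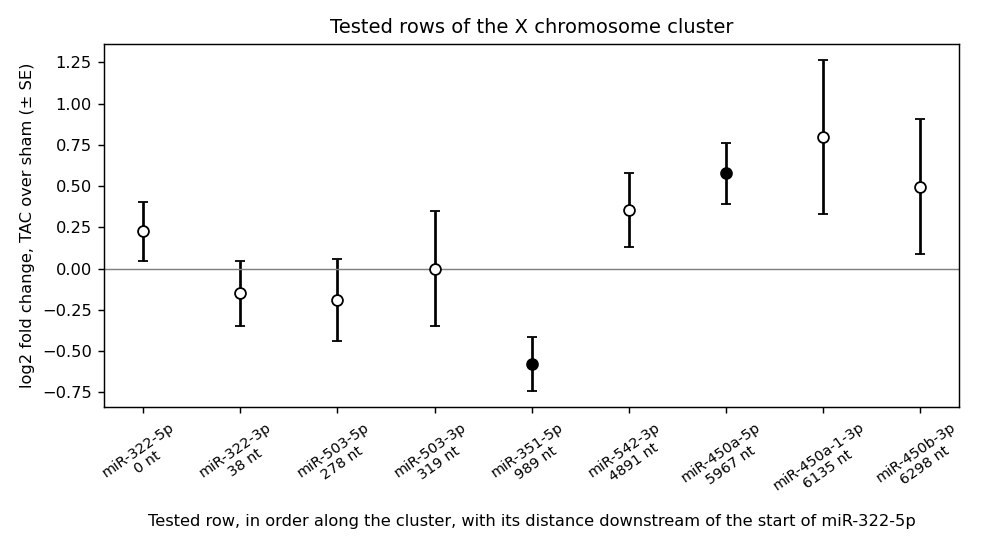
Log2 fold change of TAC over sham with its standard error (vertical) for the 9 tested rows of the X chromosome cluster, in order along it (horizontal, with the distance from the start of miR-322-5p, to the nearer place of miR-450a-5p); filled points are called. miR-351-5p lies at -0.58 and miR-450a-5p at 0.58, and the rows of miR-322 and miR-503 lie between -0.19 and 0.23.

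miR-103-3p and miR-107-3p carry the core AGCAGCA of the family 1 base earlier, at bases 1 to 7, so that their own seed, in capitals, is shifted.
miR-103-3p: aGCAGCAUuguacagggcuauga
miR-107-3p: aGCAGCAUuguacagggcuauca
Neither was called (-0.01 ± 0.14 and -0.01 ± 0.14, edgeR adjusted p = 0.947 and 0.95). The row of miR-107-3p held 32.3% to 32.4% of the counts of both rows in every library, so these rows are not independent measurements.

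The patterns over the 6 hearts were compared by the root-mean-square difference of log2 CPM, centred on each miRNA's own mean, among the 297 miRNAs whose mean level was 10 CPM or more. Nearest to miR-16-5p were miR-106b-5p (0.05) and miR-206-3p (0.07), where the median difference from miR-16-5p was 0.35. Nearest to miR-15a-5p were miR-208a-5p (0.07) and miR-208a-3p (0.09), 2 arms of 1 hairpin. miR-146b-5p came first for miR-15b-5p (0.11), miR-195a-5p (0.09) and miR-195b (0.08), followed by let-7i-5p (0.11), miR-744-5p (0.11) and miR-98-5p (0.11) respectively. These members lay only 0.15, 0.19 and 0.17 from their own means by the same measure. Part of that closeness is thus that their levels varied little. The nearest miRNA of each member is also the smallest of 296 differences. miR-1843b-5p and miR-381-3p (both 0.08) were nearest to miR-322-5p, and miR-423-3p (0.07) and miR-331-3p (0.08) to miR-497a-5p. Among the members, miR-15b-5p and miR-195b were the closest pair (0.115) and miR-15a-5p and miR-497a-5p the farthest (0.461).

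Among 24 tested miRNAs that have been studied for their part in cardiomyocyte division, 7 were called higher, 5 lower and 12 were not called, against 19.2% higher and 11.3% lower of all tested miRNAs. Their median log2 fold change was 0.26. That list holds both miRNAs known to promote division and miRNAs known to restrain it. miR-1a-3p (0.86 ± 0.14, edgeR adjusted p = 0.00316) and miR-133a-3p (0.62 ± 0.13, edgeR adjusted p = 0.00841), both abundant in heart muscle, rose, although reads of miR-133a-3p may be shared with the near-identical miR-133b-3p. miR-128-3p (0.47 ± 0.08, edgeR adjusted p = 0.00406) and miR-19b-3p of the miR-17 cluster (1.07 ± 0.21, edgeR adjusted p = 0.00675) rose as well. With library totals the calls of miR-128-3p (0.16, adjusted p = 0.206) and miR-133a-3p (0.31, adjusted p = 0.0779) were lost, and without a filter on low counts that of miR-128-3p (0.31, adjusted p = 0.189). The 5 called lower, named after their values were seen, were let-7a-5p (-0.36 ± 0.11, edgeR adjusted p = 0.0366), let-7b-5p (-0.38 ± 0.11, 0.0283), let-7c-5p (-0.36 ± 0.11, 0.0396), miR-199a-3p (-0.53 ± 0.16, 0.034) and miR-199b-3p (-0.53 ± 0.16, 0.033). The latter pair is 1 mature strand counted in 2 rows, and the let-7 rows may share reads: with near-identical rows summed, all 3 were at -0.17 (adjusted p = 0.269). The calls of the 3 let-7 rows were lost without sham 47, sham 69, TAC 29, TAC 78 or TAC 81 (-0.41 to -0.28), and those of the miR-199 rows without sham 47, sham 68, TAC 29, TAC 78 or TAC 81 (-0.55 to -0.35). The let-7 rows did not all fall: let-7f-5p was called higher (0.30 ± 0.09, edgeR adjusted p = 0.0366). let-7d-5p (0.22), let-7g-5p (0.15), let-7i-5p (0.10) and let-7e-5p (-0.27) were not called.

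Some marker miRNAs of other cell types moved with the groups as well. Of 4 smooth muscle miRNAs tested 3 were called higher (miR-145a-3p by 0.89 ± 0.13, edgeR adjusted p = 0.00176). Its opposite arm miR-145a-5p was not called (0.21 ± 0.10, edgeR adjusted p = 0.144). The summed level of the 4 was 34646 to 43270 CPM in sham and 59555 to 62589 CPM in TAC hearts, and miR-143-3p held most of it (41618 of 43270 CPM in sham 47). Of 5 leukocyte miRNAs tested 2 were called higher (miR-150-5p by 1.17 ± 0.15, edgeR adjusted p = 0.000901), with a summed level of 218 to 234 CPM in sham and 345 to 362 CPM in TAC hearts and miR-142a-3p at 0. The other call, miR-223-5p (0.97 ± 0.31, edgeR adjusted p = 0.0459), rests on 10 to 20 reads per library. Its opposite arm miR-223-3p was not called (-0.19 ± 0.24), and neither were miR-142a-5p (0.36 ± 0.17) and miR-155-5p (0.56 ± 0.19). Of 4 endothelial miRNAs 3 were at 0 in every library, where they overlap a row on the opposite strand, and the 1 tested was not called. The part of these cell types in the levels of the family was not tested.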

How the data were processed

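Small RNA of 6 hearts was measured, with 1 library per mouse per the labels. The authors deposited read counts, as whole numbers in a single table with a row for each mature miRNA. The submitters' processing notes list build mm10, HISAT2, StringTie and DESeq2 without a role, and how reads were trimmed, counted and assigned to a strand is not stated there. Each of the 6 columns was matched to a mouse, with 0 left over.

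Counts of all 6 libraries were tested with edgeR 4.0.16 in R 4.3.3 (TMM factors, filterByExpr, quasi-likelihood F-test, no covariate), adjusted over 354 rows. The standard error is the size of the log2 fold change over the square root of F. The limit that a count of 0 allows, 3 counts, is 0.855 to 2.45 CPM, for counting error only. Within-library ratios used two-sided exact permutation tests, and likeness a pseudocount of 0.5 CPM. Mature sequences from RefSeq matched 1675 rows by name and place.

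The members and lists were chosen with earlier results of these data known. The rule for naming took all members, tested relatives, rows with the same seed, the 2 miRNAs most like each member and up to 4 called rows of each other list, of which the marker lists are shown by the row with the smallest p. In 10 simulations of TAC against sham on 1966 rows, edgeR called 29.1% of 1.5-fold changes, 77.2% of 2-fold changes and 1.14% of unchanged rows. Each simulation changed 200 rows above a minimum of reads, in random directions, and gave all rows a common dispersion. These rates hold for those settings and need not be those of the real counts. Alternatives were DESeq2 1.42.0, limma-voom (limma 3.58.1), a robust fit, 4 scalings, 2 filters, division by places, sums of near-identical rows (up to 2 mismatches), removal of opposite-strand rows, a GC trend and each mouse left out. The sum of miR-195a-5p and miR-195b was added after seeing the data.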

Additional observations from a re-analysis of the deposited data

How the results depend on the processing

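Over all miRNAs, 64 to 83 were called with 1 mouse left out (69 without TAC 78 and 64 without TAC 81) and 83 to 127 in the other settings, against 108. The split of 68 higher and 40 lower was 50 and 56 (RLE), 41 and 63 (upper quartile), 25 and 102 (library totals), 43 and 72 (totals less the 5 most abundant), 59 and 50 (DESeq2), 42 and 65 (no filter) and 51 and 52 (division by places). Members called were 0 to 1 with 1 mouse left out (0 without TAC 29 or TAC 81), 2 with totals less the 5 most abundant and 0 with no filter. With library totals the 1 member called was miR-497a-5p, lower.

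miR-16-5p kept its direction in all 20 alternatives and its call in 16, with an adjusted p of 0.00474 to 0.203. In 1 of those 16, near-identical rows summed (0.42, adjusted p = 0.0315), the value is that of miR-16-5p and miR-195a-5p together. Another of the 16, the sum of miR-195a-5p and miR-195b, left the counts of miR-16-5p unchanged (0.52, edgeR adjusted p = 0.0125) and is no check of its call. miR-16-5p was at 0.46 to 0.62 with 1 mouse left out, at 0.21 with library totals and at 0.36 with no filter. The cause of these losses was not tested. The share of counts held by the family differed by 0.00202 percentage points (TAC minus sham), or 0.0212 when the 5 most abundant miRNAs were left out.

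Several rows without a call changed sign. miR-15b-5p was at -0.013 (RLE), -0.014 (DESeq2), -0.25 (library totals), -0.092 (upper quartile), -0.10 (totals less the 5 most abundant), -0.094 (no filter), -0.14 (GC trend) and -0.061 to 0.16 (1 mouse left out). miR-195a-5p was at 0.42 where it is summed with miR-16-5p by construction. With 1 mouse left out, miR-195a-5p was at -0.26 to 0.073, miR-195b at -0.15 to 0.055, miR-322-3p at -0.30 to 0.048 and miR-503-5p at -0.37 to 0.0003. miR-103-3p was at -0.092 to 0.11 and miR-107-3p likewise, and each was at 0.0047 when near-identical rows were summed. Library totals gave -0.078 for miR-322-5p, -0.064 for miR-15b-3p and -0.086 for miR-16-1-3p, and the GC trend gave -0.065 for miR-15b-3p and -0.032 for miR-542-3p. miR-503-3p was at -0.078 (RLE), -0.31 (library totals), -0.15 (upper quartile), -0.16 (totals less the 5 most abundant, and no filter), -0.072 (DESeq2), -0.046 (at least 10 CPM), -0.058 (division by places), -0.013 (no opposite-strand rows), -0.0017 (GC trend) and -0.19 to 0.20 (1 mouse left out). No paired analysis was possible because the groups share no replicate number.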
